A study of Mus musculus with 6 samples.

Results

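The genes of the inter-alpha-trypsin inhibitor and of the fetuins were followed in whole testes of mice: the heavy chain genes Itih1, Itih2, Itih3, Itih4 and Itih5, the light chain precursor gene Ambp, and the fetuin genes Fetub and Ahsg. The 8 genes were picked by symbol, and the family was chosen by the difference between the genotypes in these same libraries, in which Itih2 and Fetub were higher in the mutant. Rows for 7 of the 8 were found among 36652 genes, and Itih1 was not analysed here. Because the genotype difference itself chose the family, the differences of the members are given as descriptions, and no other libraries were used here to test them.

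The samples were testes of mice aged 8 weeks, with 3 libraries labelled WT and 3 labelled Ccdc117ko, a knockout by that label of Ccdc117, a gene for a coiled-coil protein. The labels do not describe the allele, the strain, or whether the replicates are separate mice, so p-values measure only the spread between these libraries. Ccdc117 had 3657, 3826 and 3931 normalized counts in the 3 WT libraries and 3478, 3772 and 3908 in the libraries labelled Ccdc117ko, and the total over the gene therefore says nothing of which allele a library carried. Reads per library came to 35791616 to 43461692.

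Inter-alpha-trypsin inhibitor is a plasma protein made mainly by the liver, in which heavy chains are joined to bikunin through a chondroitin sulphate chain. Bikunin, a protease inhibitor with Kunitz domains, is cut from the Ambp product together with the lipocalin alpha-1-microglobulin. The protein made by Tnfaip6 moves heavy chains onto hyaluronan, which steadies matrices such as that around the ovulated egg. Fetuins are liver glycoproteins of the cystatin superfamily: fetuin-A, from Ahsg, holds calcium phosphate in solution, and fetuin-B, from Fetub, inhibits the egg protease ovastacin (Astl).

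In the 3 annotated gene clusters, members lie side by side. In mm10, Itih2 (chromosome 2, 10094593 to 10131396, minus strand) and Itih5 (10153571 to 10256529, plus strand) point away from each other with 22174 bases between them. Ahsg (chromosome 16, 22891277 to 22899449) and Fetub (22918334 to 22939778) both run on the plus strand, 18884 bases apart. Itih4 (plus strand), Itih3 and Itih1 (minus strand) fill 56.8 kb of chromosome 14 from 30886476 to 30943289, and Ambp lies alone on chromosome 4 (63143275 to 63154799, minus strand). Of the members, Ahsg alone overlaps the exons of another annotated gene, the antisense Gm30505, which had 0 to 5.08 normalized counts per library.

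The promoters of the 2 members that were higher in the mutant, and of Ahsg next to Fetub, are shown as RefSeq gives them on GRCm38.p6, from 250 bases before to 50 after the start. RefSeq lists 2 starts for Fetub. Capitals mark matches, on either strand, to the motifs spelled out after the sequences.
Itih2, chr2:10130634-10130933, minus strand: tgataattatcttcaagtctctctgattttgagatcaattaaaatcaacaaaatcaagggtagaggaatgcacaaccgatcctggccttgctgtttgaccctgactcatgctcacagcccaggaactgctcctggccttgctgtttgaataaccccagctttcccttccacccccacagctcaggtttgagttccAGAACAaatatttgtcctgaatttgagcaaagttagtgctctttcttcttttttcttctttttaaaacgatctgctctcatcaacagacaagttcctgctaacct
Fetub, first start, chr16:22918132-22918431, plus strand: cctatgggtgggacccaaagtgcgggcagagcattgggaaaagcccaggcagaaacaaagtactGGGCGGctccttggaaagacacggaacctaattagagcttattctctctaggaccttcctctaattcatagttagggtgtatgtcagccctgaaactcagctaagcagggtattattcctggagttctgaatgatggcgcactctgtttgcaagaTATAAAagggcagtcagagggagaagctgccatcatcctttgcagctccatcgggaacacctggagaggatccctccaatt
Fetub, second start, chr16:22919972-22920271, plus strand: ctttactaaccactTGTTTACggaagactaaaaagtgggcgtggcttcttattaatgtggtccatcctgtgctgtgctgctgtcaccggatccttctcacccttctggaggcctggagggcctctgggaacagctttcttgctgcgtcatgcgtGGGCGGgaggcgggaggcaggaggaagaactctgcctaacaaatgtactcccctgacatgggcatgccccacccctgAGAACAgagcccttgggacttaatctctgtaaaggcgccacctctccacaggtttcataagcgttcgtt
Ahsg, chr16:22891765-22892064, plus strand: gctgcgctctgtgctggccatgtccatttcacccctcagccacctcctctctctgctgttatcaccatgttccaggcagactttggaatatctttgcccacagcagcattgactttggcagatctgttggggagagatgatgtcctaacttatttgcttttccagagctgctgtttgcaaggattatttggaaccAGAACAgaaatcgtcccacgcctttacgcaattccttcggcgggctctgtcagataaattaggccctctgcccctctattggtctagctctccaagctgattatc

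The androgen receptor half-site, AGAACA, was present in the promoters of Itih2, Ambp and Ahsg and at the second start of Fetub, against 19.0% of 32851 promoters of the same length. In Itih2 and in Ahsg it began 55 bases before the start on the plus strand of the gene, and at the second start of Fetub 19 bases before it. Distances are counted from the RefSeq starts. The windows of Itih2, Ambp, Ahsg and the second start of Fetub lie wholly inside the gene spans given above. Their distances therefore do not hold for the outer ends of those spans. A TATA box, TATAAA, lay 31 bases before the first start of Fetub (13.6% of promoters hold one in the window), and a GC box, which reads GGGCGG, lay 186 bases before it (35.7%). TATAAA was also in the windows of Itih3 and Itih4, and GGGCGG in those of Itih3 and, at 3 places, Itih5. The second start of Fetub had a match to the FoxA letters TGTTTAC 236 bases before it (3.65%) and a GC box 96 bases before it. The Nr5a1 letters, AAGGTCA, were present among the members at Ambp alone, 180 and 7 bases before the start (4.72%). The half-site of the cyclic AMP response element, TGACGT (7.51%), was found in none of the 9 windows. These are matches of letters, and binding was not measured.

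Per length of transcript, Itih2 was the highest of the members in every library. Levels were expressed as normalized counts per kb of the longest transcript. In WT the means were 128 for Itih2, 32.0 for Ambp, 22.5 for Itih5, 13.6 for Fetub, 12.6 for Itih3, 6.32 for Ahsg and 1.49 for Itih4. The WT libraries of Fetub and Itih3 overlapped, as did those of Itih3 and Ahsg, and the other neighbours in this order did not. Itih2 stood at percentile 51.0 of the protein-coding genes tested, Fetub at 22.8 and Itih4 at 6.86, so the family was a middling to low part of the testis transcriptome. In the libraries labelled Ccdc117ko the order was Itih2 (235), Fetub (59.9), Ambp (36.3), Itih5 (17.4), Itih3 (12.9), Ahsg (5.45) and Itih4 (2.29). There Fetub stood above Itih5 in each library and overlapped with Ambp, and Ahsg overlapped with Itih4.

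**Figure D1:**
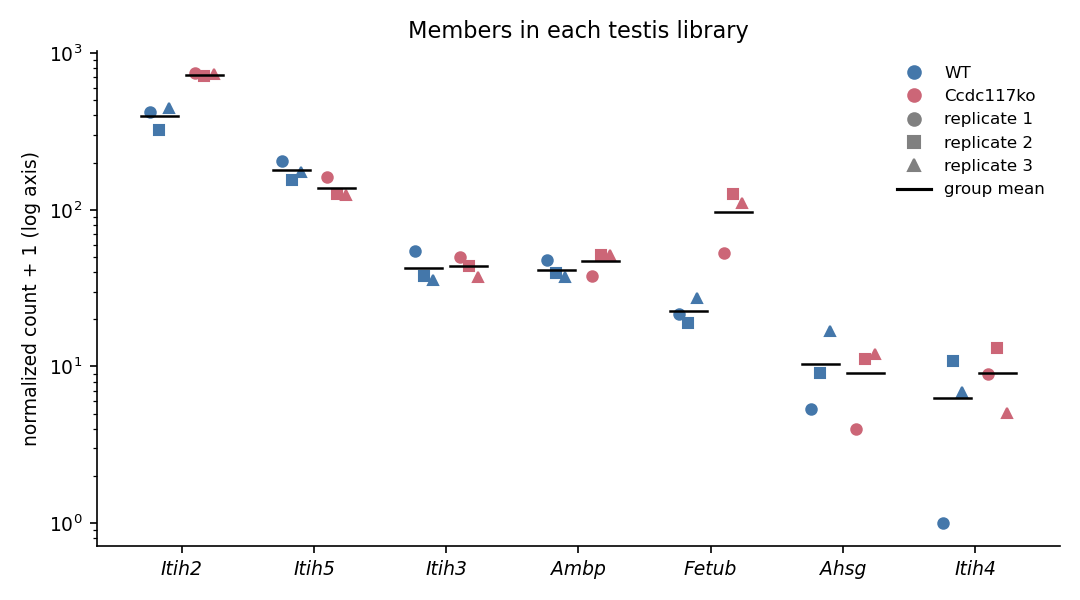
Normalized counts plus 1 of the 7 members in each library on a log axis, with WT in blue, Ccdc117ko in red, the replicate number given by the symbol and the group mean as a bar. Itih2 and Fetub have no overlap between the genotypes, and the other 5 members do.

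Of the 7 members, Itih2 and Fetub were higher in the mutant at an adjusted p under 0.05 in limma and none was lower, where 6.80% of the 32783 genes tested were called, 3.70% higher and 3.10% lower. The same pair had no overlap between the genotypes, as did 27.0% of the genes tested. The genotype difference chose the family, so nothing is read from these counts. All 7 members passed the low-value filter (mean over the libraries not under 0.5 normalized counts), and 5 averaged 10 or more. The median log2 change was 0.17 over the members and 0.00 over all genes tested. Whole-testis reads cannot tell a change in the number of cells that make a transcript from a change in its amount per cell.

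Itih2, which encodes heavy chain 2, had 421, 321 and 448 normalized counts in the WT libraries, in replicate order, against 743, 711 and 733 in those labelled Ccdc117ko. Every mutant library lay above every WT library, and the mutant libraries were close together. WT averaged 397 ± 66.9 and the mutant 729 ± 15.9 (SD, n = 3 each), for a fold of 1.84. The mutant SD was below the 27.1 that counting error alone gives at this depth, while the WT SD was above its counting error of 19.8, mainly through the low value of WT replicate 2. The log2 fold change was 0.89 (SE 0.12, limma adjusted p = 0.0141), and 8.19% of the genes tested had a larger absolute change. The authors' deposited table, from the same libraries, gives Itih2 an FDR of 3.25e-15, where 4233 of 36652 genes were under 0.05.

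Fetub had 20.6, 17.9 and 26.5 normalized counts in the WT libraries against 52.0, 126 and 109 in those labelled Ccdc117ko. The lowest mutant library, replicate 1, was still above the highest WT library, though it stood below the other 2 mutant libraries. In reads, the WT libraries together held 66 (exact Poisson 95% interval 51.0 to 84.0) and the mutant libraries 284 (252 to 319), intervals that cover counting error only. WT averaged 21.7 ± 4.40 and the mutant 95.6 ± 38.8 (SD, n = 3 each), for a fold of 4.41. The WT spread was near its counting error of 4.63, and the mutant spread was above its counting error of 9.83. The log2 fold change was 2.01 (SE 0.34, limma adjusted p = 0.0201), and 0.50% of the genes tested had a larger absolute change. As this difference chose the family, nothing is read from that share. The authors' deposited table gives Fetub an FDR of 3.90e-09, where 4233 of 36652 genes were under 0.05.

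The library order differed between the 2 genes. Among the WT libraries replicate 2 was lowest and replicate 3 highest for both. Among the mutant libraries replicate 1 was the highest for Itih2 and the lowest for Fetub. The ratio of Itih2 to Fetub per kb was 10.5, 9.22 and 8.70 in WT and 7.36, 2.91 and 3.47 in the libraries labelled Ccdc117ko.

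Both calls were sensitive to the loss of a library, as were calls over all genes tested: 2228 with every library and 6 to 1268 with 1 left out. With 1 library left out in turn, the log2 change of Itih2 was 0.75 to 0.98 (limma adjusted p = 0.047 to 0.11, called without WT replicate 1 and lost without any other library), and that of Fetub 1.77 to 2.40 (limma adjusted p = 0.0598 to 0.123, lost each time). When the fit was also restricted to genes averaging 10 or more normalized counts, an alternative chosen after seeing the data, the highest limma adjusted p was 0.00555 for Itih2 and 0.0131 for Fetub.

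Itih5, the heavy chain gene next to Itih2 and the one with the longest transcript, had 205, 154 and 173 normalized counts in WT and 162, 126 and 124 in the libraries labelled Ccdc117ko. The groups overlapped, since mutant replicate 1 exceeded WT replicate 2. The means were 177 ± 25.7 and 137 ± 21.3 (SD, n = 3 each), with a log2 change of -0.37 (SE 0.15, limma adjusted p = 0.195). With length and GC content of the transcripts corrected for, it was -0.23. The ratio of Itih2 to Itih5 per kb was 5.23, 5.30 and 6.60 in WT and 11.7, 14.4 and 15.1 in the mutant, with no overlap. Itih2 alone had no overlap either and its difference chose the family, so nothing further is read from this ratio.

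Itih3, which encodes heavy chain 3, had 53.2, 36.8 and 34.4 normalized counts in WT and 49.0, 42.7 and 36.3 in the mutant, and the groups interleaved. Its log2 change was 0.06 with a standard error of 0.23, and its sign turned when WT replicate 2 or 3 or Ccdc117ko replicate 1 was left out (-0.06 to 0.24 over all 6). Itih4, whose product circulates without bikunin, had 0, 9.87 and 5.90 normalized counts in WT and 7.99, 12.2 and 4.03 in the mutant. Its log2 change (SE 0.87) exceeded that of Itih2 but came from 17 reads in WT and 24 in the mutant, and was -0.04 without WT replicate 1, where no read was counted. A difference in Itih4 was not detectable at this depth.

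Heavy chain transcripts as a sum were higher in the mutant, mainly through Itih2. The difference of Itih2 chose the family, so nothing more is read from the higher sum. The 4 genes together had 178, 137 and 179 normalized counts per kb in WT and 277, 262 and 264 in the mutant. Itih2 made up 77.6% ± 2.91 of this sum in WT and 87.9% ± 1.53 in the mutant (SD, n = 3 each), while Itih5 made up 13.7% ± 1.26 and 6.48% ± 0.800. Itih3 gave 7.67% ± 1.66 and 4.82% ± 0.605, while its own level was 12.6 and 12.9 normalized counts per kb. A share also falls when Itih2 alone is higher.

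**Figure D2:**
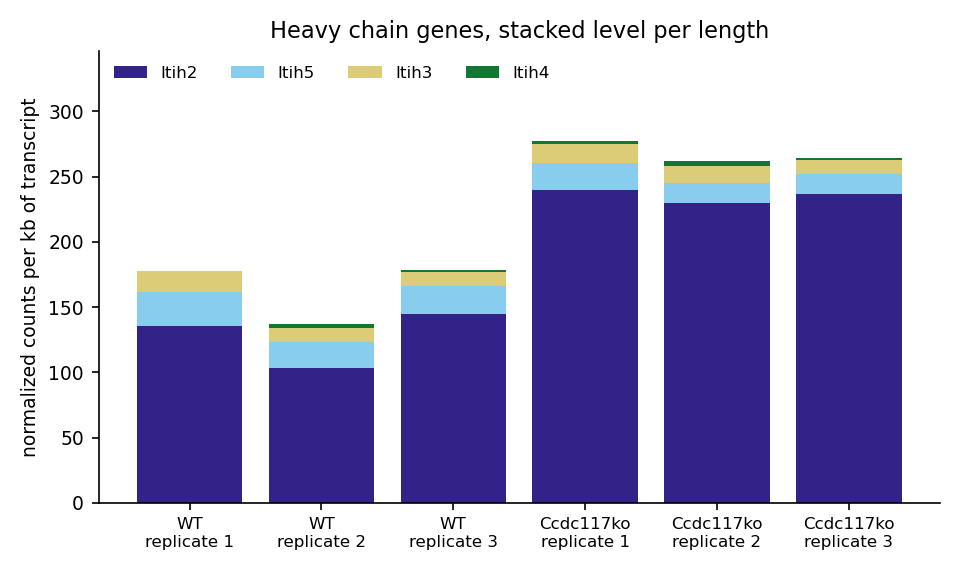
Stacked normalized counts per kb of transcript for Itih2, Itih5, Itih3 and Itih4 in each library. The 3 WT bars reach 137 to 179 and the 3 Ccdc117ko bars 262 to 277, and Itih2 is the largest layer in each.

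Ambp, the source of bikunin, had 46.7, 38.6 and 36.4 normalized counts in WT and 37.0, 50.8 and 50.4 in the mutant. The groups overlapped, with means of 40.5 ± 5.42 and 46.1 ± 7.87 (SD, n = 3 each) and a log2 change of 0.17 with a standard error of 0.21. The ratio of Itih2 to Ambp per kb was 3.69, 3.41 and 5.04 in WT and 8.21, 5.73 and 5.95 in the mutant.

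Ahsg, next to Fetub, had 4.34, 8.07 and 15.7 normalized counts in WT, and in the mutant 10.2 and 11.1 in replicates 2 and 3 and a lower value, from 3 reads, in replicate 1. The libraries of each genotype ran across the range of the other. Its log2 change was -0.20 with a standard error of 0.58, from 29 reads in WT and 24 in the mutant, and turned to 0.23 without WT replicate 3 and 0.32 without Ccdc117ko replicate 1. The strand setting of the counting is not given in the sources used here, so reads of Ahsg and of the antisense Gm30505 may not be separable.

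Among the 3 nearest protein-coding genes on each side of each cluster, 23 were tested and 2 were called, where 6.80% of all genes tested were. Prkcq, a protein kinase C gene beyond Itih5, was higher at 0.22 on the log2 scale (limma adjusted p = 0.0465). It starts at 11172108 on chromosome 2, past Sfmbt2, and so is not directly beside the cluster. Col27a1, a collagen gene beyond Ambp that starts at 63214004 on chromosome 4, was lower at -0.26 (limma adjusted p = 0.0499). The median over the 23 was -0.01. Both calls were lost under TMM scaling (limma adjusted p = 0.0506 for Prkcq and 0.0511 for Col27a1) and on leaving out any 1 library. Among genes averaging 10 or more, 6 neighbours were called, where 3798 of all 22878 such genes were. With length and GC corrected for, Col27a1 had -0.10 (limma adjusted p = 0.472) and Prkcq 0.30 (0.0175). Directly beside Itih2, Kin, a DNA-binding protein gene, had 0.04 (adjusted p = 0.91). Beside Fetub, the fetuin relative Hrg had a mean of 0.897 normalized counts in WT and 2.02 in the mutant, and the kininogen gene Kng2 had 8.60 ± 2.04 and 15.8 ± 1.28 (SD, n = 3 each), without overlap but not called (limma adjusted p = 0.144).

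**Figure D3:**
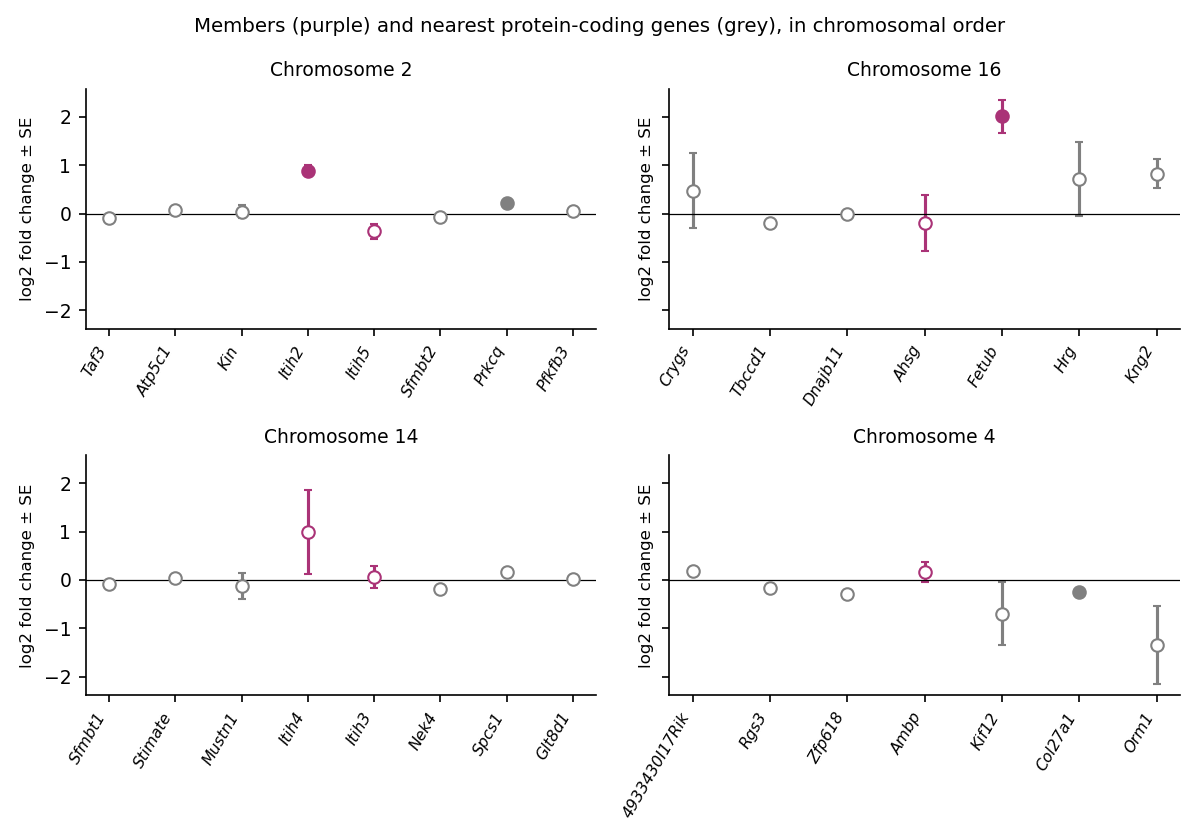
Log2 fold change with its standard error for the members (purple) and the nearest protein-coding genes (grey) in chromosomal order, with filled points where limma called the gene. Itih2 at 0.89 and Itih5 at -0.37 are neighbours, as are Fetub at 2.01 and Ahsg at -0.20.

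Genes that build or bind hyaluronan, the ligand of heavy chains, were taken first. For this and each later list, the share over all genes tested was 6.80% called, 3.70% higher and 3.10% lower. Of 12 genes of hyaluronan synthesis and breakdown 2 were higher, none lower and 10 not called (median 0.04). Both were hyaluronidases of the sperm surface: Hyal5 had 4307, 3790 and 3616 normalized counts in WT and 4535, 4976 and 5069 in the mutant, and Spam1 had 2475, 2101 and 2005 in WT and 2701, 2807 and 2810 in the mutant. Their log2 changes were 0.32 and 0.34 (limma adjusted p = 0.0409 and 0.0386). Hyal6 of the same list went the other way, with 2345, 2748 and 2849 in WT and 2371, 2275 and 2329 in the mutant. Its groups overlapped and it was not called (limma adjusted p = 0.181). Of the 12 log2 changes, 6 were above 0, and the summed level was 9763 to 10671 normalized counts in WT and 11118 to 11856 in the mutant. The synthase Has3 had 27.1 ± 4.10 and 27.3 ± 12.8. Markers of round spermatids, the cells before sperm, moved in the direction of Hyal5 and Spam1: 5 of 6 were called higher and none lower. Their summed level was 71495 to 76252 in WT and 78800 to 86536 in the mutant. Most of it came from Tnp1, which was not called (50663 ± 3625 in WT, 52032 ± 4628 in the mutant). The part of these cells in the values of Hyal5 and Spam1 was not tested.

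Hyaluronan-binding genes had 2 lower, none higher and 14 not called of 16 tested (median -0.24). Of the 16 log2 changes 5 were above 0, and the summed level was 2944 to 3113.5 normalized counts in WT and 2875 to 2919 in the mutant. Tnfaip6, whose product transfers heavy chains, had 49.9, 57.4 and 53.1 normalized counts in WT and 34.0, 28.5 and 22.2 in the mutant, with no overlap. Its log2 change was -0.92 (limma adjusted p = 0.0435). The call was lost on leaving out any 1 library (limma adjusted p = 0.0795 to 0.156) and with the replicate number as a block (0.0929). Hmmr, a hyaluronan receptor gene also linked to the mitotic spindle, fell by 0.43 (adjusted p = 0.0169), and spermatogonial markers fell beside it, with 3 of 6 lower and a summed level of 7417 to 8154 in WT and 5811 to 6134 in the mutant. The part of those cells was not tested. Vcan, a large hyaluronan-binding proteoglycan, had 44.1 ± 19.5 and 19.2 ± 1.88 (limma adjusted p = 0.0839), and Ptx3, a matrix partner of heavy chains, 4.72 ± 3.21 and 2.37 ± 2.56 (SD, n = 3 each).

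Genes for the chondroitin sulphate chain, which carries heavy chains on bikunin, had 2 lower, none higher and 13 not called of 15 (median -0.10). Of the 15 log2 changes 2 were above 0, and the summed level was 8152 to 8643 normalized counts in WT and 7392 to 7598 in the mutant. Fam20b, a xylose kinase of the linker, fell from 2845 ± 93.5 to 2452 ± 59.7 normalized counts, and Chpf, a chain-polymerizing factor, from 2510 ± 6.35 to 2191 ± 68.5 (SD, n = 3 each). Their limma adjusted p were 0.0296 and 0.0318, and both calls were lost with length and GC corrected for (0.109 and 0.115).

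Other Kunitz-domain genes had 1 lower and 13 not called of 14 (median -0.10). Of the 14 log2 changes 4 were above 0, and the summed level was 16598 to 16981 normalized counts in WT and 14744 to 15545 in the mutant. Aplp2, an amyloid precursor relative, fell from 7003 ± 429 to 5632 ± 137 normalized counts (limma adjusted p = 0.0177), and the testis and epididymis inhibitor Eppin had 1034 ± 127 and 1057 ± 69.0. Among 8 fetuin relatives and astacin proteases none was called (median 0.18). Astl, the target of fetuin-B, had means of 1.68 normalized counts in both genotypes, Bmp1 had 187 ± 22.6 and 209 ± 15.3, and Tll2 had 42.3 ± 8.51 and 29.6 ± 10.2. Of 4 other genes with the VIT or VWA domains of heavy chains none was called (median -0.28), with Vwa5b1 at 2687 ± 324 and 3294 ± 186 and Vwa5a at 178 ± 21.7 and 154 ± 21.3.

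Other liver-type genes did not share the difference of Itih2 and Fetub as single calls. Of 21 other plasma protein genes none was higher, 1 was lower and 20 were not called (median -0.03). Trf, the transferrin gene, fell from 712 ± 85.1 to 535 ± 7.47 normalized counts. Its limma adjusted p was 0.0355, or 0.0541 with length and GC corrected for, and 79.8% of its 50-base words are shared with the overlapping gene model Gm20425. Alb, the albumin gene, had no read in 5 libraries and 4.03 normalized counts in Ccdc117ko replicate 3. Apoh had 1569 ± 35.6 and 1561 ± 92.3. The summed level of this list was 3288 to 3392 in WT and 3092 to 3143 in the mutant.

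Hepatocyte enzymes had 1 lower and 6 not called of 7 (median -0.16), and their summed level was 77.1 to 99.3 normalized counts in WT and 56.0 to 88.4 in the mutant. The called gene, Tdo2, had 3.26, 5.38 and 3.93 in WT and no read in the mutant (limma adjusted p = 0.0216), too few for a fold. Of 12 liver transcription factor genes none was called (median 0.19), with Prox1 at 569 ± 89.2 and 602 ± 10.6 (SD, n = 3 each). The summed level of this list was higher in the mutant without overlap, at 2002 to 2075 normalized counts in WT and 2236 to 2313 in the mutant.

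Over the 109 tested genes of these 9 lists, 2 were higher and 7 lower, or 8.26% called, near the 6.80% of all genes tested. The count was 0 without WT replicate 2 or 3 or any 1 of the Ccdc117ko libraries, where 6 to 22 of all 32783 genes tested were called. The count of list genes was 6 to 12 among genes averaging 10 or more whichever library was left out, where 1714 to 4021 of all 22878 such genes were called. Hyal5, Spam1, Hmmr, Aplp2 and Tdo2 were called without WT replicate 1 and with no other library left out, and Tnfaip6, Fam20b, Chpf and Trf with none. Among genes averaging 10 or more, which leaves out Tdo2, Tnfaip6 was called in 2 of the 6 omissions, Chpf in 3 and the other 6 list genes in all 6. With the replicate block, Hmmr and Aplp2 alone of the 9 were called (limma adjusted p = 0.0488 and 0.0459).

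**Figure D4:**
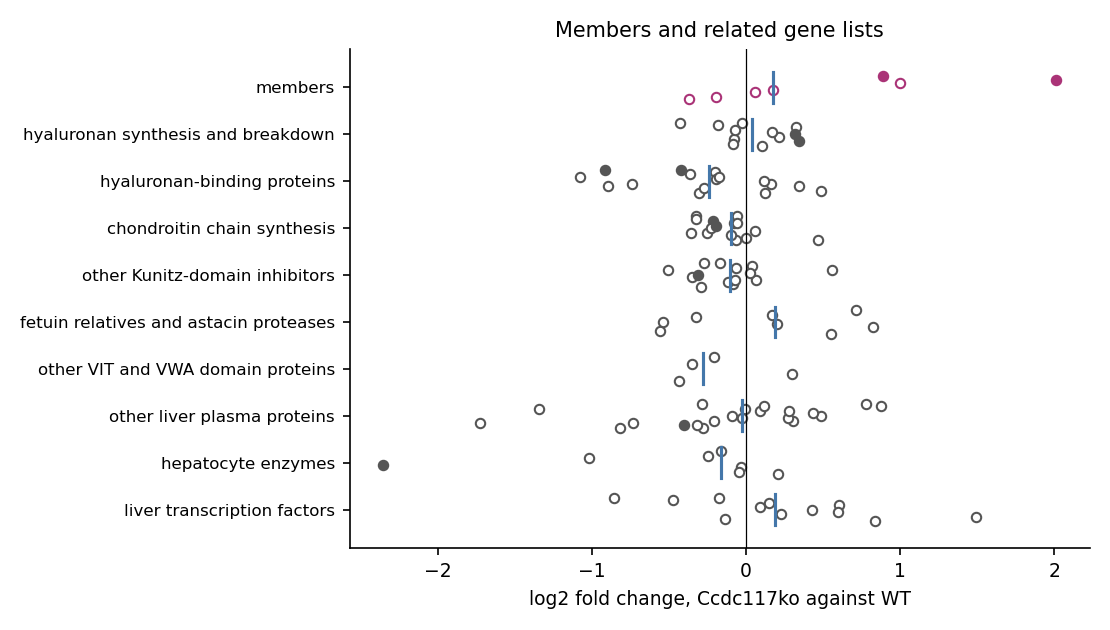
Log2 fold change of each tested gene in the members and in the 9 related lists, with filled points where limma called the gene and a blue bar at the median of each. Itih2 and Fetub lie at 0.89 and 2.01, and the called genes of the lists lie between -0.92 and 0.34, apart from Tdo2, whose plotted value depends on the pseudocount since no mutant read was counted.

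Markers of testis cells were called to differing degrees, where 6.80% of all genes tested were. Leydig cell markers had 3 higher and 1 lower of 7 (summed level 65947 to 76384 normalized counts in WT, 78429 to 91258 in the mutant), and Sertoli markers 4 lower of 11 (62260 to 63438, 56882 to 57959). Most of each sum came from 1 gene that was not called. These were Insl3 (48328 ± 3955 in WT, 57057 ± 5261 in the mutant) and Clu (43791 ± 593, 40246 ± 818). Macrophage markers had 1 lower of 7 (2553 to 2919, 2187 to 2456) and peritubular myoid markers 1 lower of 5 (4456 to 4653, 3986 to 4489, overlapping). No call was made among the tested endothelial (6), red cell (4), fat (4), mesothelial (4) and epididymal (4) markers, though the summed levels did not overlap for fat (237 to 301 in WT, 314 to 342 in the mutant) and mesothelium (112 to 132, 81.6 to 106). The part of any of these cells in the values of Itih2 and Fetub was not tested. The epididymal gene Lcn8 had no read in 5 libraries and 2 reads in Ccdc117ko replicate 1. Rnase10 of the same list had 138, 152 and 179 normalized counts in WT and 114, 108 and 141 in the mutant, overlapping.

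Over the 6 libraries, the genes most like Itih2 were 1700023H06Rik, the mitochondrial ribosomal gene Mrpl28 and Gm34599, with Pearson's r of 0.993, 0.992 and 0.989. For Fetub they were Bola1, Sh3kbp1 and Spred3, with r of 0.998, 0.997 and 0.996. Pearson's r does not weigh the size of a change. The log2 changes were 0.36, 0.22 and 0.68 for the first 3, against 0.89 for Itih2. They were 0.24, 0.36 and 0.20 for the other 3, against 2.01 for Fetub. The comparison ran over 17548 genes averaging 50 or more normalized counts, of which 651 had r over 0.9 with Itih2 and 811 with Fetub. All points share the same 6 libraries and their genotypes.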

How the data were processed

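The authors deposited 1 table with a log2 value per library for 36652 genes. The file header does not state the unit, which was read from the values as log2(normalized count + 1): with the log2 undone and 1 subtracted, 100% of values under 500 reads were whole multiples of 1 step per library, within 0.01. Per the labels' protocols, DNase-treated RNA went into stranded mRNA libraries for Illumina sequencing, and STAR, DESeq2 and mm10 appear, with no version or role, in the submitters' processing notes. How reads were counted is not given in the sources used here. In the table, the authors' p-value and FDR columns come from a test the file does not name. That FDR did not always match the limma calls. Tdo2, called by limma, had 0.103, and Vwa5b1, Vcan and Hyal6, not called, had 4.5e-04, 0.0160 and 0.0286.

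Limma-trend (limma 3.58.1, R 4.3.3) was fitted to the deposited log2 values of the 32783 genes whose mean was 0.5 normalized counts or more, with genotype as the only term. P-values are two-sided with Benjamini-Hochberg adjustment over all of them and a threshold of 0.05. The pseudocount of 1 inside the log2 values makes changes of low genes look smaller. Positions and lengths came from GENCODE M21 (GRCm38). The members and gene lists were chosen with earlier results of these data known. Besides the members, the text names Ccdc117, up to 4 called genes of each list (otherwise the 2 most abundant), called neighbours and the 3 closest patterns. A gene of the liver transcription factor list that this rule names is not reported here. The other genes named were chosen after their values were seen. Listed genes without a row were not analysed here. Alternatives were other filters, pseudocounts and scalings, a replicate block, a length and GC correction, and leaving out each library. The steps were tested on simulated counts. No 2 libraries were duplicates (chi-square per degree of freedom 4.43 to 7.00 within a genotype).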

Additional observations from a re-analysis of the deposited data

How the results depend on the processing

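Itih2 and Fetub kept their direction under every alternative run, and their limma calls under all but the omission of single libraries. The number of genes called, 2228, was 6 to 1268 with 1 library left out and 703 with the replicate block. With a mean of at least 10 it was 3798 of 22878 (1714 to 4021 with a library also left out, chosen after the data were seen). With at least 1 CPM in 3 libraries it was 4127 of 18522. Replicate numbers did not pair the libraries (correlations of deviations -0.080, -0.054 and 0.043). With the block Itih2 had an adjusted p of 0.0457 and Fetub of 0.0466, and 2 of the 9 called list genes (Aplp2 and Hmmr) and none of the neighbours were called (0). Without single libraries the log2 change spanned 0.75 to 0.98 for Itih2, 1.77 to 2.40 for Fetub, -0.0621 to 0.2449 for Itih3 (with a mean of at least 10 too: -0.0151 without WT replicate 2, -0.0621 without WT replicate 3, -0.0469 without Ccdc117ko replicate 1), -0.0399 to 1.68 for Itih4 and -0.60 to 0.32 for Ahsg; list genes called ranged from 0 to 7 and neighbours from 0 to 0. With a mean of at least 10 and a library left out, list genes called ranged from 6 to 12 and neighbours from 1 to 4. Against 2 called neighbours there were 6 with a mean of at least 10 or 1 CPM in 3 libraries, 1 with no filter, a pseudocount of 0.5, upper-quartile scaling or the length and GC correction, and 0 with TMM scaling. With upper-quartile scaling 1460 genes were higher and 842 lower, and after the length and GC correction 1442 and 432, against 1212 and 1016. Count tests (edgeR, DESeq2) on recovered reads were not run. Depth limits Itih4 and Ahsg, with 17 to 29 reads per genotype.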

Other observations

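A pseudogene of the family on chromosome X, Itih5l-ps, had 7.60, 4.49 and 5.90 normalized counts in WT, and in the mutant 5.08 and 4.03 in replicates 2 and 3 and 1 read in replicate 1, and the groups overlapped. Crp, the acute-phase C-reactive protein gene, had 32.7 ± 7.48 normalized counts in WT and 19.5 ± 5.39 in the mutant (SD, n = 3 each), without overlap and not called. Fga, a fibrinogen chain gene, had 4.32 ± 0.977 and 1.01 ± 1.75, likewise not called, while Fgb had 19.4 ± 5.85 and 26.2 ± 6.23.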
